A study of Homo sapiens with 9 samples.

Results

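The exon windows of long noncoding RNAs (lncRNAs) were taken from an eCLIP data set of malate dehydrogenase 2 (MDH2). Members were the exon windows of Ensembl identifiers whose gene type in GENCODE v44 is lncRNA, without NEAT1, MALAT1, GAS5 and the symbols that start with SNHG. They came to 130429 of the 2564772 exon windows in the count table, on 5329 lncRNAs, and the left-out symbols held a further 4034 windows on 27 identifiers. eCLIP joins proteins to RNA with UV light, pulls 1 protein down with an antibody and reads, from where reverse transcription stops, the base next to the cross-link. The cells were Huh7, an established human hepatocellular carcinoma line, and the labels name no gene edit or drug. All 9 libraries came from UV cross-linked lysate treated with RNase I: 3 of the MDH2 IP, 3 of an IP with isotype-matched IgG, and 3 of the size-matched input (SMI), lysate kept back before the IP and run on the same gel range. More PCR cycles were used for the IP libraries than for SMI, so type of library and cycle number cannot be told apart. The labels do not say whether replicates came from separate cultures, and the p-values below then measure the spread between these libraries only.

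A lncRNA is a long, usually spliced and often polyadenylated transcript without a long open reading frame. Many stay in the nucleus near the site of transcription, as KCNQ1OT1 does, and others such as NORAD and OIP5-AS1 are found largely in the cytoplasm. The gene class is also a container: exons of some annotated lncRNAs enclose a tRNA gene, a spliceosomal small nuclear RNA or a small Cajal body RNA (scaRNA) on the same strand. In those exons a count cannot be assigned to the long transcript or to the small RNA. MDH2 is best known as an enzyme of the tricarboxylic acid cycle.

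Counts in member windows ranged from 56408 to 93161 per library in MDH2 IP, from 94376 to 112922 in SMI and from 14050 to 27935 in IgG IP. The IgG IP was thus the shallowest group, and its values rest on the fewest sites. All 14 hepatocyte mRNAs checked (ALB, APOA1, TTR and others) were above 0 in every library, with a summed level of at least 7609 CPM, against at most 14.0 CPM for 10 markers of blood, stroma, endothelium and neurons. CPM are counts scaled to a common library size of 1e+06, after TMM scaling of the 9 libraries together. Per kb of exon, the small RNA hosts ENSG00000270103, ENSG00000270022 and ENSG00000259001 averaged 7694, 5338 and 4467 CPM in SMI, against 541, 403 and 728 CPM in MDH2 IP. ENSG00000270066, the scaRNA host, averaged 2245 CPM per kb in MDH2 IP and 803 in SMI. A window is 50 nt long and starts 20 nt after the one before it, so 1 cross-link site enters up to 3 windows and a sum over windows exceeds the number of sites.

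Sequences of the small RNA genes and of the sites that the results turn on are shown first. All are on hg38, read 5′ to 3′ on the strand of the lncRNA. In ENSG00000260464 counts lay on an arginine tRNA gene (anticodon TCT) at chr1:93847573-93847657 on the plus strand. Capitals mark the 30 bases that its windows 22 and 23 share, which begin at base 42 of the tRNA gene, 3′ of the anticodon at bases 34 to 36.
TRR-TCT1-1 in ENSG00000260464: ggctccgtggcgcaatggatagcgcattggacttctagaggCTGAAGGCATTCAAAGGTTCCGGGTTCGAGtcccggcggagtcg
The next genes lie inside exons of other lncRNAs, and capitals mark their anticodons. The called windows of ENSG00000228549, LIMD1-AS1 and LINC00324 were not placed on hg38, and PRMT5-DT had no called window, so counts of these 4 are given for the host and not for the tRNA gene itself. The genes are a glutamate tRNA gene at chr1:16872583-16872654 (plus strand), arginine tRNA genes at chr3:45688999-45689071 (minus) and chr14:22929701-22929773 (plus), a histidine tRNA gene at chr15:45198606-45198677 (minus) and a tryptophan tRNA gene at chr17:8220869-8220940 (minus).
TRE-TTC3-1 in ENSG00000228549: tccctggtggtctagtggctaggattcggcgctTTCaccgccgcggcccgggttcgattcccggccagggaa
TRR-ACG2-1 in LIMD1-AS1: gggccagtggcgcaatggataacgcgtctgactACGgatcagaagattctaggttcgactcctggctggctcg
TRR-ACG1-3 in PRMT5-DT: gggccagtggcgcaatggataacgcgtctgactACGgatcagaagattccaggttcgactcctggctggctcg
TRH-GTG1-7 in ENSG00000259932: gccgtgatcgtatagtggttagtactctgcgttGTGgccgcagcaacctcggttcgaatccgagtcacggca
TRW-CCA1-1 in LINC00324: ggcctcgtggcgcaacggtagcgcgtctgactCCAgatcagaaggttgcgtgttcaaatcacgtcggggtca
The histidine gene in ENSG00000260035, at chr15:45200413-45200484, differs from TRH-GTG1-7 at 0 of 72 bases, and the arginine ACG genes differ from each other at 1 of 73. Reads that align to several places were kept by the authors, so counts on such copies cannot be assigned to 1 gene. ENSG00000270103 spans the same 131 bases as RNU11, the U11 small nuclear RNA of the minor spliceosome, at chr1:28648600-28648730 on the plus strand. Capitals mark the 30 bases shared by its windows 4 and 5, the fullest of the 6.
ENSG00000270103: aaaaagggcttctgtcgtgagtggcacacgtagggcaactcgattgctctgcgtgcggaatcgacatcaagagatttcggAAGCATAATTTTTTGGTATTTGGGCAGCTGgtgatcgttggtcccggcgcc
The last sites overlap no small RNA gene. LINC01593 had its counts in exon 3, 42 bases at chr2:108049200-108049241 on the minus strand, shown in capitals with 25 bases of flank on each side. In ENSG00000250027 (chr4:163119785-163119854, plus strand) and GASK1B-AS1 (chr4:158200028-158200117, plus strand) capitals mark the bases common to the windows that held the counts.
LINC01593: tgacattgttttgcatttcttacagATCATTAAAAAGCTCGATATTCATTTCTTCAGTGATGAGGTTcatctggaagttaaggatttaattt
ENSG00000250027: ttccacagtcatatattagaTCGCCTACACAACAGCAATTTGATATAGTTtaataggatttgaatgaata
GASK1B-AS1: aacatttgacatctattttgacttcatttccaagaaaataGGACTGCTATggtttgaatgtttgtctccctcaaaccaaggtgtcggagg

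LncRNA windows held a smaller share of exon counts in MDH2 IP than in either control. The share was 1.83%, 1.77% and 1.74% in MDH2 IP replicates 1, 2 and 3, against 2.58%, 2.42% and 2.29% in SMI and 2.46%, 2.73% and 2.77% in IgG IP. The MDH2 IP libraries all lay below those of SMI and IgG IP, and the SMI and IgG IP libraries overlapped. The mean fell by 0.655 percentage points from SMI to MDH2 IP (exact two-sided permutation p = 0.1, adjusted p = 0.15 over 3 comparisons) and fell by 0.878 points from IgG IP to MDH2 IP (exact p = 0.1, adjusted p = 0.15). An exact p of 0.1 is the smallest that 3 libraries against 3 can give. IgG IP minus SMI was 0.223 points (exact p = 0.2). With all windows as denominator, introns included, MDH2 IP held 0.956% to 1.06% and IgG IP 0.861% to 0.956%, so that the order of the IP groups turned, while SMI stayed highest on average at 1.05% to 1.21%.

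The difference from SMI lay almost wholly in a small group of host genes. The 114 lncRNAs whose exons overlap a small RNA or tRNA gene on their strand held 0.473%, 0.471% and 0.479% of exon counts in MDH2 IP, 1.17%, 1.09% and 0.975% in SMI and 0.655%, 0.545% and 0.593% in IgG IP. Annotated small RNA entries without an approved symbol were counted too, such as those in XIST and HOXA11-AS. Whether such entries are separate RNAs or parts of the long transcript was not checked. From SMI to MDH2 IP the class of 114 fell by 0.603 points (exact permutation p = 0.1). Much of this fall lay in a few hosts, not in the class at large. Mean exon sums went from 3545 to 267 CPM in ENSG00000270022, from 2850 to 464 CPM in ENSG00000259001 and from 1008 to 70.9 CPM in ENSG00000270103. ENSG00000270066, in the same class, rose from 343 to 958 CPM. Of the lncRNA windows that could be placed on hg38, the 151 that overlap a small RNA gene held 35.7% to 38.9% of the placed counts in MDH2 IP, 60.7% to 66.1% in SMI and 28.8% to 38.2% in IgG IP. The other 5215 lncRNAs held 1.36%, 1.30% and 1.26% in MDH2 IP and 1.42%, 1.33% and 1.32% in SMI. Those libraries overlapped, and the difference of -0.0520 points did not pass (exact permutation p = 0.4). In IgG IP the same 5215 lncRNAs held 1.81%, 2.19% and 2.18%, above every MDH2 IP library (mean difference of MDH2 IP from IgG IP -0.755 points, exact permutation p = 0.1). For the 4637 lncRNAs that overlap no other annotated exon on their strand, IgG IP held 1.43% ± 0.157 (SD, n = 3), MDH2 IP 0.831% ± 0.0361 and SMI 0.888% ± 0.0426. Introns of other genes and genes on the other strand were not counted as overlap.

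**Figure D1:**
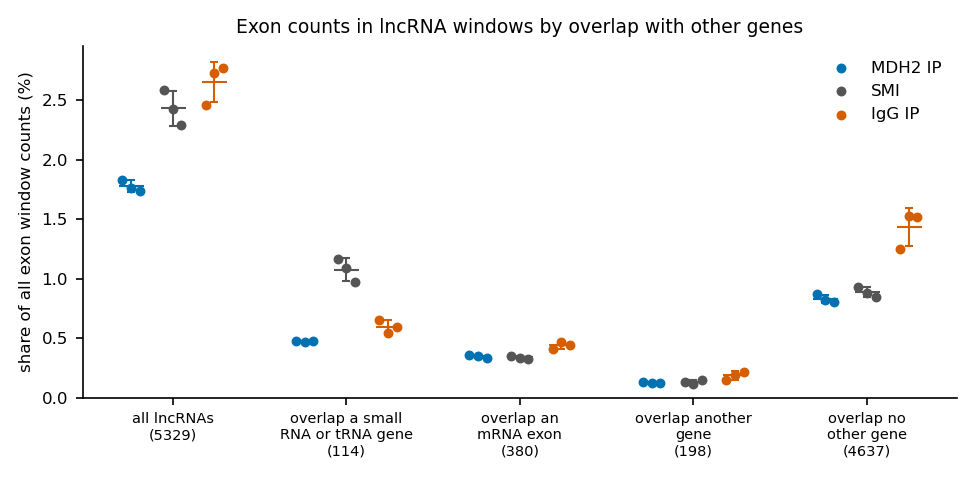
Share of all exon window counts (%) that lay in lncRNA windows, for all lncRNAs and for classes by same-strand overlap (number of lncRNAs in brackets). Points are libraries, and horizontal marks with bars are the mean and SD of 3. The class that overlaps small RNA or tRNA genes separates SMI (0.975% to 1.17%) from both IPs. The class labelled as overlapping no other gene, meaning no other annotated exon on its strand, separates IgG IP from MDH2 IP and SMI.

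At single windows, the question was where MDH2 IP exceeded the input. Of 471 lncRNA windows with enough counts to test, 34 (7.22%) were enriched in MDH2 IP over SMI and 103 (21.9%) were lower, by edgeR's quasi-likelihood test with a threshold of 0.05 on the adjusted p and of 1 on the size of the log2 fold change. Over all 51108 windows tested, 4.04% were enriched and 10% were lower. The median log2 fold change of the lncRNA windows was -0.25, against 0.05 for all windows. Enriched windows lay on 9 lncRNAs and lower windows on 20, out of 57 lncRNAs with a tested window. Scaling to total counts gave 97 enriched and 76 lower, and moved the median of all windows to 0.62. Without the small RNA and tRNA hosts, 10 enriched and 25 lower windows were left.

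The enriched windows fell on hosts of scaRNAs, on hosts of tRNA genes and on a few isolated sites. ENSG00000270066, whose windows are shared with SCARNA2, held 14 of the 34, and SCARNA9 held 5. Both RNAs belong to the scaRNAs, which guide modification of spliceosomal RNAs in Cajal bodies. The exon sum of ENSG00000270066 was 1098, 915 and 862 CPM in MDH2 IP, 412, 347 and 270 CPM in SMI and 1994, 1328 and 1640 CPM in IgG IP. All MDH2 IP libraries were above SMI and below IgG IP, with a log2 fold change over SMI of 1.45 ± 0.19 (SE, adjusted p = 0.000996 by edgeR's quasi-likelihood test). The exon sum of SCARNA9 was also above SMI in every MDH2 IP library, and MDH2 IP and IgG IP overlapped. It was 93.5, 75.2 and 56.0 CPM in MDH2 IP, 17.5, 27.5 and 15.4 CPM in SMI and 176, 122 and 85.2 CPM in IgG IP. Windows 10 to 12 of SCARNA9, all enriched over SMI, were called lower in MDH2 IP than in IgG IP (log2 fold changes of -1.79 to -1.52, edgeR). Its windows are shared with CEP295. Of the 34 enriched windows, 21 are shared with another identifier, and 13 remained without shared windows.

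The lncRNAs with enriched windows that overlap tRNA genes carried Arg TCT and Glu TTC genes. In ENSG00000260464, the counts of window 21 were 76, 109 and 104 for MDH2 IP, 17, 22 and 7 for SMI and 20, 2 and 3 for IgG IP. The MDH2 IP libraries did not overlap SMI, and the log2 fold change was 2.52 ± 0.36 (adjusted p = 9.9e-05, edgeR). Windows 22 and 23 had the same counts in each MDH2 IP library, 145, 236 and 173, and their log2 fold changes were 1.20 and 1.26. Window 23 lost its call without SMI replicate 1 or 3. Window 24, at the 3′ end, had 32, 61 and 38 counts for MDH2 IP, 57, 79 and 47 for SMI and 13, 0 and 0 for IgG IP. Window 21 exceeded window 24 in all 3 MDH2 IP and all 3 IgG IP libraries and was below it in all 3 SMI libraries, a difference in position that was not tested. IgG IP was also called above SMI at window 21 (log2 fold change 1.68 ± 0.51, adjusted p = 0.0324, edgeR). The libraries overlapped, at 17.8, 3.25 and 5.81 CPM in IgG IP and 4.87, 5.09 and 1.66 CPM in SMI. Only IgG IP replicate 1 stood well above SMI. The exon sum of ENSG00000260464 lost its call (log2 fold change 1.06 ± 0.30) when MDH2 IP replicate 2 or 3, SMI replicate 1 or SMI replicate 3 was left out. Window 84 of ENSG00000228549, whose exons overlap both the Glu TTC gene and RNU1-5P and whose counts were placed on neither, reached 52.3, 134 and 114 CPM in MDH2 IP, 3.72, 4.16 and 3.32 CPM in SMI and 74.9, 22.7 and 21.3 CPM in IgG IP. MDH2 IP exceeded SMI by a log2 fold change of 4.62 ± 0.34 (adjusted p = 2.92e-09, edgeR), and the IgG IP libraries also lay above every SMI library.

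Of the enriched windows, 6 on 3 lncRNAs had no count in any SMI library. The study's own screen removes regions without counts in the input, and these were kept here. LINC01593, an intergenic transcript, had 215, 207 and 258 counts on exon 3 in MDH2 IP, 126, 23 and 10 in IgG IP, and 0 in every SMI library. Set against 3 counts per SMI library, that was at least 74.4-fold higher in MDH2 IP and at least 74.7-fold higher in IgG IP, the latter at least 37.6-fold without IgG IP replicate 1. Of NOP14-AS1, an antisense transcript of the ribosome biogenesis gene NOP14, both enriched windows in exon 3 held 28, 53 and 43 counts for MDH2 IP and 13, 1 and 4 for IgG IP, at least 13.8-fold higher in MDH2 IP than in SMI. ENSG00000280118, at the SNRPN locus on chromosome 15, had 30, 23 and 34 counts in MDH2 IP in a window that is listed for SNRPN too, and 19, 11 and 7 in IgG IP, at least 9.48-fold higher in MDH2 IP than in SMI. The remaining enriched windows lay on KCNQ1OT1 (3) and ENSG00000256028 (1), whose exons overlap ARL6IP4 and OGFOD2. The KCNQ1OT1 window with the largest change held 14, 10 and 12 counts in MDH2 IP, 1, 0 and 1 in SMI and 5, 1 and 3 in IgG IP, and DESeq2 did not call it.

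Several lncRNAs without a small RNA or tRNA gene were lower in MDH2 IP than in SMI, HOTAIR among them. HOTAIR, a lncRNA of the HOXC cluster known for its association with chromatin regulators, had exon sums of 578, 240 and 192 CPM in SMI, 1.33, 1.72 and 0.894 CPM in MDH2 IP and 1.78, 0 and 17.4 CPM in IgG IP. SMI did not overlap either IP, the IPs overlapped each other, and the log2 fold change between MDH2 IP and SMI was -7.98 ± 0.55 (adjusted p = 1.94e-05, edgeR). Of the SMI counts, 1617, 955 and 441 lay in exon 2 and 374, 62 and 344 in exon 5. Intron counts of HOTAIR overlapped between MDH2 IP and SMI, at 29, 20 and 22 in MDH2 IP, 26, 25 and 19 in SMI and 19, 7 and 3 in IgG IP. The fullest window of exon 5, with 123, 21 and 113 counts in SMI, had none in either IP and was at least 30.4-fold lower in MDH2 IP than in SMI, set against 3 counts per MDH2 IP library.

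Other lncRNAs were covered at a single site in SMI. In ENSG00000250027, each of the neighbouring windows shown above had 31, 32 and 30 counts in SMI and 0 in all 6 IP libraries, at least 10.6-fold lower in MDH2 IP. GASK1B-AS1, whose exons overlap TMEM144 on the same strand, had exon sums of 50, 21 and 11 in SMI and 0 in all IP libraries. That was at least 9.91-fold lower in MDH2 IP and at least 5.09-fold without SMI replicate 1. LINC02533 had exon sums of 34, 50 and 46 counts in SMI, 4, 6 and 4 in MDH2 IP and 2, 0 and 2 in IgG IP, a log2 fold change of -3.27 ± 0.44 between MDH2 IP and SMI (adjusted p = 0.00118, edgeR). These sites were present in all SMI libraries. In the shallower IgG IP a count of 0 is a weaker limit: each window of ENSG00000250027 was there at least 1.75-fold lower than in SMI.

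The tRNA hosts with lower windows carried His GTG, Arg ACG, Trp CCA, Asp GTC, Pro CGG and Tyr GTA genes. ENSG00000259932 (His GTG) had exon sums of 39.8, 40.9 and 41.9 CPM in SMI, 1.70, 2.21 and 3.28 CPM in MDH2 IP and 1.78, 4.87 and 11.6 CPM in IgG IP. Its log2 fold change between MDH2 IP and SMI was -4.15 ± 0.28 (adjusted p = 1.79e-05, edgeR). ENSG00000260035, with the identical His gene, changed by -3.84 ± 0.46, LINC00324 (Trp CCA, Asp GTC and Pro CGG genes) by -3.93 ± 0.26 and ENSG00000253190 (Tyr GTA) by -3.22 ± 0.30. LIMD1-AS1 (Arg ACG) had 96, 97 and 34 counts in SMI and 2, 2 and 3 in MDH2 IP, a log2 fold change of -5.08 ± 0.63. PRMT5-DT, which holds the other Arg ACG gene but no called window, had 18, 16 and 17 counts in SMI against 0, 1 and 0 in MDH2 IP. For each of these hosts, all MDH2 IP libraries lay below all SMI libraries. The introns of LIMD1-AS1 were lower too, with 118, 141 and 87 counts in SMI and 22, 12 and 10 in MDH2 IP. Those of LINC00324 had 124, 164 and 142 counts in SMI and 13, 10 and 15 in MDH2 IP. Intron counts of PRMT5-DT and ENSG00000253190 also lay lower in every MDH2 IP library. In these hosts the fall was not confined to exon windows, and its source was not tested. POLG-DT, host of an Arg TCG gene, was not called against SMI: its exon sums were 126, 252 and 124 counts for MDH2 IP and 85, 104 and 44 for SMI.

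Hosts of spliceosomal and RNase P RNAs were lower as well. ENSG00000270103 (RNU11) had 1315, 807 and 902 CPM in SMI, 87.3, 62.7 and 62.9 CPM in MDH2 IP and 140, 52.0 and 167 CPM in IgG IP, a log2 fold change between MDH2 IP and SMI of -3.86 ± 0.24 (adjusted p = 1.11e-05, edgeR). ENSG00000270022, which holds RNU12, the U12 RNA of the same spliceosome, changed by -3.76 ± 0.17, from 3871, 3708 and 3054 CPM in SMI to 244, 283 and 276 CPM in MDH2 IP. ENSG00000259001 holds RPPH1, the RNA of RNase P that trims tRNA precursors, and changed by -2.65 ± 0.21. All windows tested on ENSG00000270103 and ENSG00000259001 were lower, 6 and 19 of them. Further lower windows lay on ENSG00000240801 (10), ENSG00000264772 and ENSG00000257379 (8 each), which overlap exons of IGF2, EIF4A1 and PCBP2. The latter pair also overlap small RNA genes, SNORA67 in ENSG00000264772 and ENSG00000273658 in ENSG00000257379, and are counted among the hosts. TERC, the telomerase RNA, was lower over windows 5 to 7 (log2 fold changes of -1.91 to -1.53), while its exon sum of 160 to 188 CPM in MDH2 IP and 187 to 265 CPM in SMI did not pass. XIST had 939, 743 and 769 CPM in SMI and 447, 358 and 360 CPM in MDH2 IP. Its log2 fold change was -1.11 ± 0.16 (adjusted p = 0.00188, edgeR), and 1 of its windows was lower. In IgG IP, at 555, 440 and 443 CPM, XIST was also lower than SMI (-0.73 ± 0.20, adjusted p = 0.0258, edgeR).

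**Figure D2:**
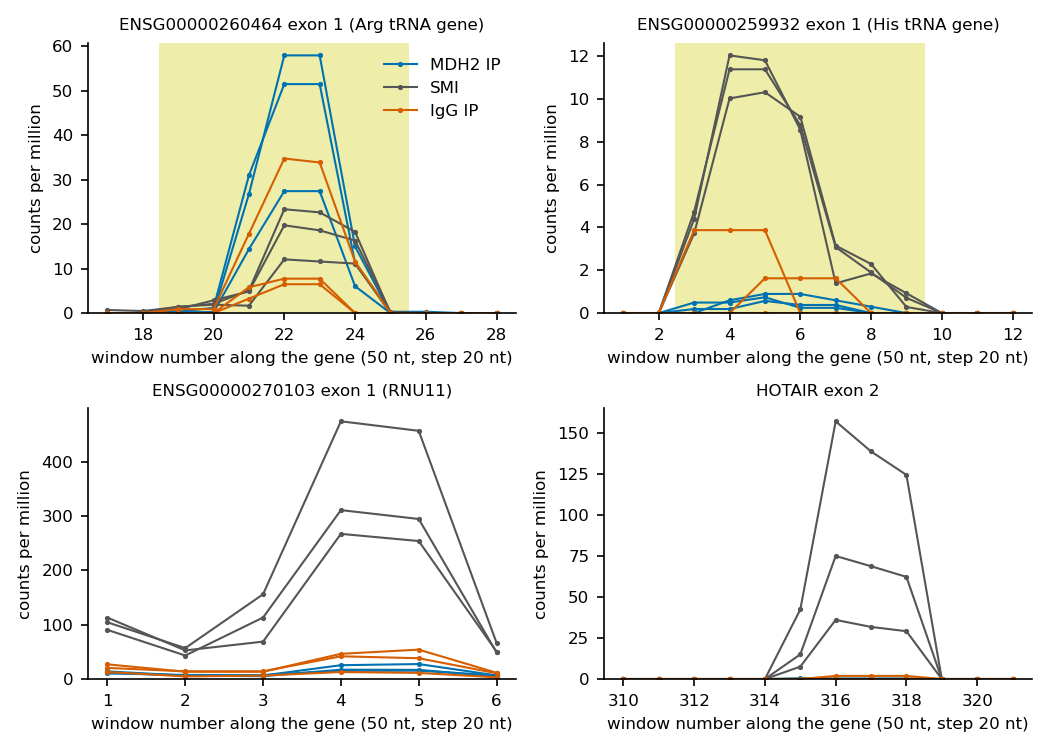
CPM (y axis) in consecutive 50-nt windows (x axis, window number in genomic order) of 4 lncRNA exons, 1 line per library; shading marks windows that overlap the tRNA gene. MDH2 IP lines peak in windows 22 and 23 of ENSG00000260464, where IgG IP replicate 1 lies among them, whereas SMI lines are highest over the His tRNA gene of ENSG00000259932, over RNU11 (window 4, 267 to 474 CPM in SMI) and in HOTAIR exon 2 (36.0 to 157 CPM in its fullest window).

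Summed over exons, a smaller share of lncRNAs than of all identifiers was called against SMI, a difference that was not tested. Of 5329 lncRNAs, 1026 had at least 10 counts in 3 or more of the 6 libraries compared. Of these, 44 (4.29%) were higher and 81 (7.89%) lower in MDH2 IP (edgeR's quasi-likelihood test, adjusted p of at most 0.05), against 8.6% and 10.7% of all 13923 identifiers tested. The median log2 fold change was -0.20 for lncRNAs and 0.00 for all identifiers. Among the 66 tested hosts of small RNA or tRNA genes, 5 were higher and 19 lower. These include HOXA11-AS (higher) and XIST (lower), whose small RNA entries have no approved symbol. Among the 726 that overlap no other annotated exon on their strand, 22 were higher and 45 lower. Scaling to total counts changed the split to 59 higher and 64 lower and moved the median of all identifiers to 0.17. Leaving out SMI replicate 1 left 10 higher and 33 lower. With the replicate number as a block, 87 were higher and 152 lower, but the methods do not say that the numbers match.

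LncRNAs called higher and lower differed in the base composition of their exons, as did all identifiers. The median G+C content was 57.5% for the 44 higher lncRNAs, 47.7% for those not called and 40.4% for the 81 lower ones. The same medians over all identifiers were 57.8%, 47.7% and 40.8%. Of 215 tested lncRNAs above 55% G+C, 33 were higher and 3 lower, and of 163 below 40%, 0 were higher and 38 lower. Median exon lengths were close, 2813 nt for higher, 2821 nt for uncalled and 2850 nt for lower lncRNAs. IgG IP against SMI gave a similar picture, with medians of 55.7% for the higher and 44.9% for the lower lncRNAs, and 62 of 154 lncRNAs above 55% higher in IgG IP. The part of base composition in the calls was not tested.

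**Figure D3:**
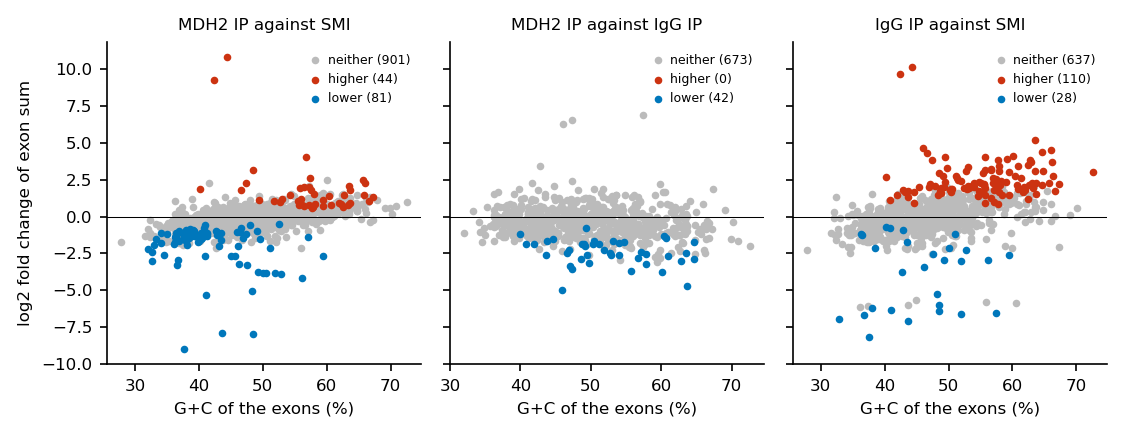
Log2 fold change of lncRNA exon sums (y axis) against G+C content of the exons (x axis, %) in 3 comparisons; each point is a tested lncRNA and colour gives the call (number in brackets). Higher lncRNAs gather above 55% G+C in both comparisons with SMI, and 0 of 715 lncRNAs passed as higher in MDH2 IP against IgG IP.

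Of lncRNAs that overlap no other annotated exon on their strand and had counts in SMI, MIOS-DT rose most. This divergent transcript of MIOS had 4.35, 4.67 and 5.66 CPM in MDH2 IP, 0.859, 0.694 and 0 CPM in SMI and 15.2, 14.6 and 17.4 CPM in IgG IP. It rose by a log2 fold change of 3.16 ± 0.75 over SMI (adjusted p = 0.0169, edgeR) and lost that call without SMI replicate 1. TBX2-AS1, antisense to a T-box transcription factor gene, rose by 2.29 ± 0.60 over SMI and had 11.6, 69.8 and 85.2 CPM in IgG IP. LINC02323 (2.45 ± 0.71) and MAGOH-DT (2.31 ± 0.58) also rose. MAGOH-DT, divergent from the gene of an exon junction protein, had counts of 19, 18 and 21 for MDH2 IP, 2, 6 and 3 for SMI and 0 for every IgG IP library. It was not called against IgG IP (adjusted p = 0.118, edgeR). The calls of TBX2-AS1, LINC02323 and MAGOH-DT against SMI were also lost without SMI replicate 1, those of TBX2-AS1 and LINC02323 without SMI replicate 2, that of MAGOH-DT without SMI replicate 3 and that of TBX2-AS1 without MDH2 IP replicate 3.

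Some transcripts named for an intron of another gene were lower in MDH2 IP. Their class takes symbols with -IT (intronic) or -OT (overlapping) and was chosen after its values were seen. Of 14 tested in the class, 0 were higher and 5 lower than in SMI, beside 8.6% higher and 10.7% lower over all identifiers tested. The lower ones were SOS1-IT1 (-3.31 ± 0.76), ASAP1-IT2 (-2.65 ± 0.75), HEXD-IT1 (-2.14 ± 0.61), ANKRD10-IT1 (-1.54 ± 0.33) and N4BP2L2-IT2 (-1.53 ± 0.31). Reads of the host's unspliced RNA cannot be told apart from theirs. For N4BP2L2-IT2 the counts were 117, 58 and 41 for MDH2 IP and 178, 249 and 124 for SMI, which did not overlap. The calls of SOS1-IT1, ASAP1-IT2 and HEXD-IT1 were lost without MDH2 IP replicate 1, those of ASAP1-IT2 and HEXD-IT1 also without replicate 2 and that of ASAP1-IT2 without replicate 3, and those of ANKRD10-IT1 and N4BP2L2-IT2 without SMI replicate 1. Of 98 divergent transcripts tested, 4 were higher and 5 lower, and of 213 antisense transcripts 9 were higher and 12 lower, beside the same 8.6% and 10.7%.

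The lists of nuclear, cytoplasmic, liver and microRNA host lncRNAs held few calls against SMI and are read beside the 8.6% higher and 10.7% lower over all identifiers tested. Of 12 tested nuclear or chromatin lncRNAs, 1 was higher than SMI (HOXA11-AS, 2.04 ± 0.57) and 2 were lower (HOTAIR, and FTX, a regulator of X inactivation, -0.87 ± 0.19), and both HOXA11-AS and FTX lost their call without SMI replicate 1, HOXA11-AS also without SMI replicate 3. Of 9 cytoplasmic lncRNAs, 0 were higher and 2 lower, LINC00324 and OIP5-AS1. OIP5-AS1, a conserved transcript also known as cyrano whose exons overlap NUSAP1, had 82.0, 63.4 and 75.7 CPM in MDH2 IP, 178, 175 and 156 CPM in SMI and 91.9, 107 and 67.8 CPM in IgG IP, a log2 fold change of -1.24 ± 0.16 (adjusted p = 0.000934, edgeR). The 4 liver lncRNAs tested, LINC00261 and the miR-122 host MIR122HG among them, gave 0 calls in either direction. MIR122HG had 90.7, 75.7 and 63.5 CPM in MDH2 IP, 86.5, 88.4 and 83.9 in SMI and 93.7, 122 and 87.1 in IgG IP, and the groups overlapped. Of 18 microRNA hosts tested against SMI, 0 were called in either direction. NORAD, a cytoplasmic lncRNA that binds Pumilio proteins, had 258, 322 and 258 CPM in MDH2 IP and 255, 283 and 279 CPM in SMI, which overlapped.

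Against IgG IP, which shares the MDH2 IP libraries with the comparison above, no lncRNA passed as higher. Of 314 lncRNA windows tested, 0 were enriched in MDH2 IP and 25 (7.96%) lower, against 0.148% and 4.71% of all windows tested (edgeR). At an unadjusted one-sided p under 0.05, 14 were higher, and DESeq2 also called 0. Of 715 exon sums, 0 were higher and 42 (5.87%) lower, against 0.302% and 1.8% of all identifiers tested (edgeR). At an unadjusted p under 0.05, 16 sums were higher and 175 lower, and DESeq2 called 0 and 90. The median log2 fold change was -0.46 for lncRNAs and 0.04 for all identifiers. The 34 windows enriched over SMI had log2 fold changes over IgG IP from -1.79 to 1.22, with 9 above 0 and 4 called lower. Scaling to total counts moved the median of all windows to 0.40 and gave 1 enriched and 18 lower lncRNA windows. Without IgG IP replicate 1, 4 windows were enriched. Without MDH2 IP replicates 1, 2 or 3 in turn, 13, 15 and 18 sums were lower.

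Of the 42 lncRNAs below IgG IP, 27 have no approved symbol, as do 289 of the 673 tested and not called. No other annotated exon on their strand overlaps 33 of the 42 and 441 of the 673. ENSG00000258593 had 2.27, 0.737 and 3.28 CPM in MDH2 IP, 2.29, 3.24 and 1.90 CPM in SMI and 47.3, 58.5 and 89.1 CPM in IgG IP. MDH2 IP and SMI overlapped, IgG IP stood apart, and MDH2 IP against IgG IP was -4.96 ± 0.48 (adjusted p = 0.000294, edgeR). ENSG00000265393 (-4.74 ± 0.70), ENSG00000267263 (-3.77 ± 0.37), ENSG00000276529 (-3.68 ± 0.60) and ENSG00000260563 (-3.54 ± 0.52) had the next largest changes. ENSG00000260417 had 50.5, 33.7 and 40.5 CPM in MDH2 IP, 24.3, 19.9 and 34.8 in SMI and 357, 331 and 430 in IgG IP, a log2 fold change of -3.20 ± 0.23 from IgG IP to MDH2 IP. MIR130AHG, whose exons overlap an mRNA exon on the same strand, and MIR600HG were lower, with log2 fold changes of -3.14 ± 0.39 and -1.82 ± 0.23. They were 2 of 14 microRNA hosts tested, none of them higher, beside 1.8% lower over all identifiers.

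Long lncRNAs covered over many windows appeared here too. KCNQ1OT1, the antisense transcript that silences the KCNQ1 imprinted domain in cis, had 580, 411 and 634 CPM in MDH2 IP, 755, 502 and 785 CPM in SMI and 1586, 1185 and 2182 CPM in IgG IP. Of its 2581 listed windows, the 5 fullest held 1.98% of its MDH2 IP counts and 0.961% of its SMI counts. HOTAIR had 36 listed windows, and the 5 fullest held 84.5% of its SMI counts. Such shares depend on the number of windows. KCNQ1OT1 was lower in MDH2 IP than in IgG IP (log2 fold change -1.65 ± 0.25, adjusted p = 0.00684, edgeR), a call lost without MDH2 IP replicate 1, and did not differ detectably from SMI (adjusted p = 0.264). DLEU2, host of miR-15a and miR-16-1, was lower than IgG IP (log2 fold change -1.84 ± 0.37) and lost that call without any of the MDH2 IP replicates or IgG IP replicate 2 or 3. KCNQ1OT1 and DLEU2 were the 2 lower of 9 tested nuclear lncRNAs, of which 0 were higher. Over all identifiers tested, 0.302% were higher and 1.8% lower (edgeR). Of 8 cytoplasmic and 4 liver lncRNAs none was called, and a difference between these lists was not tested. Within NORAD, window 61 had 4.54, 4.42 and 6.85 CPM in MDH2 IP, 2.29, 3.24 and 3.79 in SMI and 16.1, 24.4 and 56.2 in IgG IP, so that MDH2 IP was below IgG IP (log2 fold change -2.65 ± 0.42, adjusted p = 1.68e-05, edgeR). ENSG00000240801, whose exon overlaps IGF2 mRNA, held 12 of the 25 windows lower than IgG IP.

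**Figure D4:**
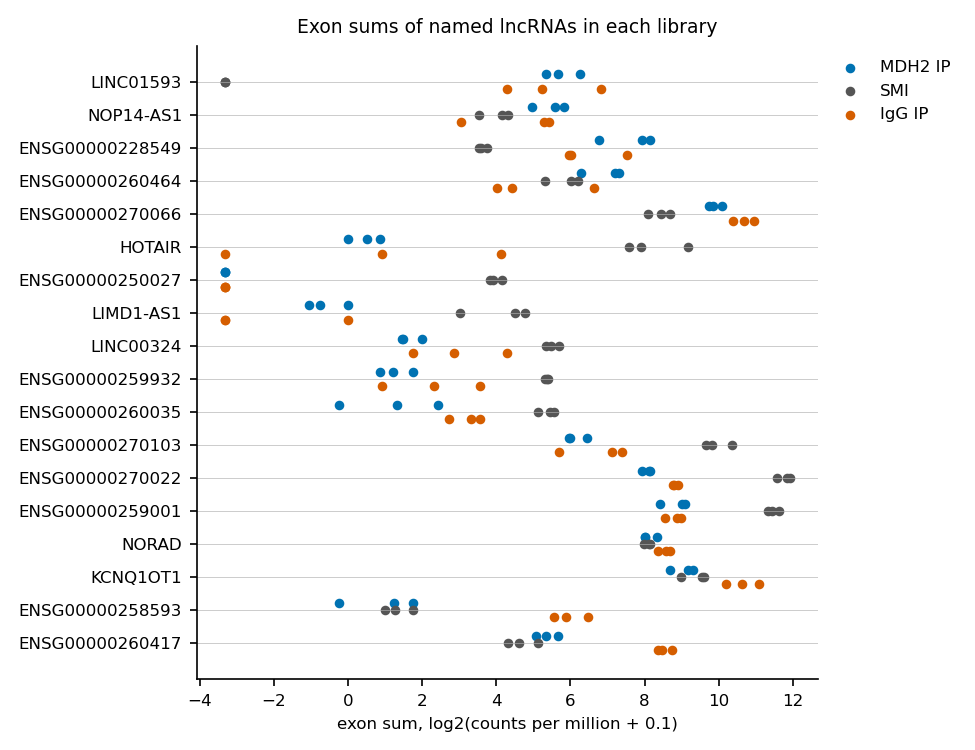
Exon sums of 18 named lncRNAs in each library as log2(CPM + 0.1); points at the left edge are libraries with 0 counts. LINC01593 and ENSG00000228549 are low in SMI alone, HOTAIR, ENSG00000250027, the hosts LIMD1-AS1, LINC00324, ENSG00000259932 and ENSG00000260035 of tRNA genes and the hosts of RNU11, RNU12 and RPPH1 are high in SMI alone, and KCNQ1OT1, ENSG00000258593 and ENSG00000260417 are high in IgG IP.

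IgG IP against SMI, which shares libraries with both comparisons above, showed more lncRNAs higher. Of 775 exon sums, 110 (14.2%) were higher and 28 (3.61%) lower in IgG IP, against 9.58% and 5.98% of all identifiers tested (edgeR). The median log2 fold change was 0.14 for lncRNAs and -0.11 for all identifiers. Among the 528 that overlap no other annotated exon on their strand, 82 were higher and 12 lower. Of 16 microRNA hosts, 5 were higher and 0 lower: MIR1915HG (3.39 ± 0.62), MIR130AHG (3.32 ± 0.44), MIR600HG (1.98 ± 0.24), MIR29B2CHG (1.97 ± 0.41) and MIR194-2HG (1.43 ± 0.29). KCNQ1OT1 (1.32 ± 0.26) and DLEU2 (1.44 ± 0.42) were higher, HOTAIR was lower, and the other 7 of 10 tested nuclear lncRNAs did not pass. The call of DLEU2 was lost without IgG IP replicate 2 or 3 or SMI replicate 1 or 2, and that of MIR194-2HG without SMI replicate 1. HOTAIR (-6.00 ± 0.72), ENSG00000270022 (-2.94 ± 0.21), ENSG00000270103 (-3.04 ± 0.36) and LINC00324 (-2.27 ± 0.46) were lower than SMI in IgG IP, as each was in MDH2 IP. Of 323 windows, 41 were higher and 58 lower, against 6.14% and 6.4% of all windows tested, and scaling to total counts moved the median of all windows to 0.08 and gave 51 and 56. Windows 22 to 25 of TERC were among those higher (log2 fold changes of 1.44 to 2.17), as were 3 windows each of NORAD and POLG-DT. Window 23 of TERC, the one at 2.17, lost its call without SMI replicate 1 or 3.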

How the data were processed

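Cross-link sites of 9 eCLIP libraries (MDH2 IP, SMI and IgG IP in 3 replicates each) were analysed from a table of the whole series. The counts, not normalized, are those the authors deposited for windows of 50 nt placed every 20 nt. The authors trimmed reads with cutadapt, aligned them with STAR to hg38, collapsed PCR duplicates by molecular identifiers and counted sites with htseq-clip on GENCODE v23 models with tRNA genes added, without subtracting the input. Exon windows were assigned to lncRNAs through GENCODE v44 gene types. The members and lists were chosen with earlier results of these data known. Windows were given hg38 positions only where exon numbering could be matched to v44. Overlaps on the same strand used v44 and the RefSeq tRNA genes, of which 382 of 443 had a strand from the T-loop letters GTTCNANNC. Exon and window numbers are those of the table.

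Windows and exon sums with at least 10 counts in 3 of the 6 libraries compared were tested over the whole table in edgeR 4.0.16 (R 4.3.3; TMM, quasi-likelihood, no block). Window p-values were one-sided in each direction and corrected for overlapping tested windows before the Benjamini-Hochberg adjustment, and the log2 fold change had to reach 1 in size. Sums were tested two-sided with the same adjustment. Shares of counts were set against each other by exact permutation. In simulated counts, 98.1% of windows and 97% of sums with a log2 change of 2 were recovered for MDH2 IP against SMI, and 82.5% and 95.4% against IgG IP. The changed features were drawn only from those with an expected count per library well above the filter. Recovery of sparser windows and sums, as many of lncRNAs are, was not measured. Lower limits of a fold use 3 counts per library and cover counting error only. Per-sample columns left unused came to 0. Python 3.11.15 made the tables and plots.

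Rules picked lncRNAs with an enriched window, those among the 10 with the most counts per group and those among the 5 largest changes in each direction. They also picked those of the 5 most lowered windows, and measured members of the nuclear, cytoplasmic, liver, structural and microRNA host lists. Not all of these are described. Those left out include HELLPAR, ENSG00000269578, ENSG00000276334, ENSG00000261094, ZNF232-AS1 and list members such as CHASERR, DANCR and ZFAS1. Outside the rules, the tyrosine and histidine tRNA hosts, LINC02533, LINC02323, MAGOH-DT, POLG-DT and the intronic transcripts were among those chosen after their values were seen. Alternatives were DESeq2 1.42.0, other scalings and count filters, all 9 libraries in 1 fit, a replicate block, no shared windows and each library left out. Leaving out the hosts of small RNA or tRNA genes was added after seeing the data.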

Additional observations from a re-analysis of the deposited data

How the results depend on the processing

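With all windows instead of exon windows as denominator, the difference in lncRNA share was -0.131 points between MDH2 IP and SMI, turned to 0.0767 between MDH2 IP and IgG IP and turned to -0.208 between IgG IP and SMI. With the left-out symbols included the differences were -1.11, -2.07 and 0.957. Without windows shared with another identifier, MDH2 IP minus SMI was -0.408 and IgG IP minus SMI 0.396. Without small RNA and tRNA hosts, an alternative chosen after seeing the data, these were -0.0520 and 0.703. For lncRNAs that overlap no other annotated exon on their strand, the 3 differences were -0.0565, -0.603 and 0.546. Scaling to total counts gave 97 windows enriched in MDH2 IP over SMI and 1 over IgG IP. Without shared windows, 13 were enriched over SMI in MDH2 IP and 20 in IgG IP. Without the hosts, the window counts were 10 higher and 25 lower in MDH2 IP against SMI and 12 and 11 in IgG IP against SMI, and 18 sums were lower in IgG IP. A minimum of 5 counts gave 168 lower windows against SMI, 39 lower against IgG IP and 63 higher in IgG IP over SMI, and a minimum of 20 gave 65 sums higher in IgG IP over SMI. For sums, all 9 libraries in 1 fit gave 25 higher and 50 lower against SMI, and 1 and 67 against IgG IP. DESeq2 gave 90 lower against IgG IP, and no count filter gave 4 higher and 76 lower there. The cause of these shifts was not tested.

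With the replicate number as a block, 87 sums were higher and 152 lower in MDH2 IP against SMI, and 3 and 72 against IgG IP. The deviations of same-numbered MDH2 IP and SMI libraries correlated with r = 0.0800, 0.506 and 0.516, and each library correlated best with its own number, which is a hint from the data. The methods take SMI from the lysate before the IP and do not say that the numbers match, so the pairing stayed an alternative.

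Leaving out each library in turn gave 12 to 28 windows enriched over SMI (12 without MDH2 IP replicate 1, 20 without MDH2 IP replicate 2 or SMI replicate 1) and 51 to 97 lower (51, 56 and 66 without SMI replicates 1, 2 and 3). Against IgG IP, 0 to 4 were enriched and 13 to 26 lower (13, 16 and 15 without MDH2 IP replicates 1, 2 and 3). IgG IP over SMI gave 26 to 38 (26 without SMI replicate 3) and 28 to 59 lower (29, 28 and 30 without SMI replicates 1, 2 and 3). For sums the ranges were 10 to 30 higher (12 and 21 without MDH2 IP replicates 1 and 2, 10, 24 and 24 without SMI replicates 1, 2 and 3) and 33 to 78 lower against SMI (33, 49 and 52 without SMI replicates 1, 2 and 3), and 0 to 1 and 13 to 44 against IgG IP (1 higher without IgG IP replicate 1, 23 and 26 lower without IgG IP replicates 2 and 3). They were 58 to 101 and 6 to 29 for IgG IP against SMI (58, 64 and 71 higher and 6, 8 and 9 lower without SMI replicates 1, 2 and 3). The share differences ranged from -0.725 to -0.580, from -0.975 to -0.819 and from 0.153 to 0.320. Over 92 values of single lncRNAs (63 sums and 29 windows) and all alternatives in which they were tested, 1333 stayed on their side of the threshold, 63 lost their call and 0 turned.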
